A study of Mus musculus with 10 samples.

Results

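The 9 genes followed here encode enzymes for the removal of superoxide and peroxides, and were measured in primary mouse hepatocytes: the glutathione peroxidases Gpx1, Gpx3, Gpx4, Gpx7 and Gpx8, the superoxide dismutases Sod1, Sod2 and Sod3, and catalase (Cat). They were chosen by gene symbol, together with the earlier observation that Gpx3 was high under the Kat2b hairpin, and they are 9 of the 16401 genes with their own feature on the array. A feature is a probe set, and features annotated to a single gene were used. Gpx4 had 2 such features and the other 8 genes had 1 each, so 10 features were read, and the one with the highest mean over the libraries stands for Gpx4. After the lowest 30 percent of genes by mean level were left out, 8 of the 9 were among the 11480 genes tested, and Sod3 was not.

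Hepatocytes of male C57BL6/J mice, 10 weeks old, were given adenovirus at 2 to 4 plaque-forming units per cell for 72 hours. The virus carried a short hairpin RNA against Kat2b (shKAT2B), one against Wdr5 (shWDR5) or a non-specific one (shNS). Cells then received 100 nM glucagon or phosphate-buffered saline (PBS) for 90 minutes, and each of the 10 libraries pooled the RNA of 3 culture dishes. The groups were shKAT2B glucagon with 2 libraries, shKAT2B PBS with 1, shWDR5 glucagon with 2, shWDR5 PBS with 1, shNS glucagon with 2 and shNS PBS with 2. The libraries of a pair carry the letters A and B, and both lone PBS libraries carry A. All groups share the viral transduction, and untransduced cells were not analysed here. The labels list 1 hairpin per target, so loss of the target and any other action of that hairpin cannot be told apart. Nothing in the labels says that A and B came from separate animals, so p-values reflect library-to-library spread only.

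Superoxide dismutases convert superoxide to hydrogen peroxide and oxygen: Sod1 does so in the cytosol, Sod2 in the mitochondrial matrix and Sod3 outside the cell. Catalase, in liver mostly a peroxisomal enzyme, splits hydrogen peroxide into water and oxygen. Glutathione peroxidases reduce peroxides to water or alcohols, at the expense of glutathione in the classical members. Gpx1 is the main cytosolic form, Gpx4 reduces lipid hydroperoxides within membranes and holds back ferroptosis, and Gpx3 is secreted into plasma. These 3 carry selenocysteine at the active site, whereas Gpx7 and Gpx8 carry cysteine and act in the endoplasmic reticulum, where oxidative protein folding makes hydrogen peroxide. KAT2B is a histone acetyltransferase and WDR5 belongs to the core of complexes that methylate histones.

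The sequence before the annotated start of Gpx3 and of Sod2 is shown because these genes had the highest and the lowest value of the enzymes in the shKAT2B arm. RefSeq windows of GRCm38.p6 were found for 8 of the 9 genes (11 windows, 4 of them for Gpx4), and each was cut to the 250 bases before the start. Capitals mark matches to 1 of 3 motifs, read on both strands. These were CCAAT, the short form TGACG of the cyclic AMP response element, and the core TGACNNNGC of the antioxidant response element, which can overlap TGACG. The Gpx3 window is chr11:54902604-54902853 and the Sod2 window chr17:13007589-13007838, both on the plus strand.
Gpx3: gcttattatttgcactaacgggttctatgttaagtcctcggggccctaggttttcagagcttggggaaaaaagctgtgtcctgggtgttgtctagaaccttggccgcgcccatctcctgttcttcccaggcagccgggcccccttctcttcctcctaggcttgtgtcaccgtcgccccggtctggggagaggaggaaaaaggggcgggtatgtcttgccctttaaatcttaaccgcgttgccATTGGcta
Sod2: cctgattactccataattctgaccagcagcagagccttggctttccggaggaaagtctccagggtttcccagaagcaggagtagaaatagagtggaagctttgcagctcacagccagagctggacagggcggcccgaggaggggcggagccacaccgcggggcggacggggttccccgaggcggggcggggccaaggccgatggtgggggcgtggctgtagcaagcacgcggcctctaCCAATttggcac
Each window held 1 CCAAT match, a sequence present in 33.8% of all 32851 windows of this length, and neither held TGACG or TGACNNNGC. Among the enzymes, TGACNNNGC was found in the Sod1 window only, against 10.2% of all windows. TGACG was found before Sod1 and before 3 of the 4 annotated starts of Gpx4, against 17.8% of all windows. The Gpx4 windows chr10:80053315-80053564 and chr10:80053409-80053658 overlap and hold the same match, so these starts are not separate finds. The full palindrome TGACGTCA, which contains TGACG, was found in no window of the enzymes and in 1.55% of all windows. The Gpx3 window held 11 CpG dinucleotides and the Sod2 window 15, where the median window held 6.

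Each hairpin lowered its own target. Kat2b stood at 6.93 and 6.60 in the shKAT2B libraries with glucagon and 6.61 with PBS, with shNS between 9.40 and 9.42 (limma adjusted p = 2.75e-06), on the scale log2(intensity + 1) used for every level below. Wdr5 stood at 8.32 and 8.40 in the shWDR5 libraries with glucagon and 8.19 with PBS, with shNS between 9.99 and 10.06 (limma adjusted p = 1.33e-05). Alb and Trf, which mark hepatocytes, had intensities of at least 10587 and 13034 in all libraries. The hepatocyte marker Cyp2e1 reached at most 125.4 and fell under the filter. No feature of the array was read as 0 (lowest intensity 4.469), so a value above 0 does not show that other liver cells were present. The summed intensity of 9 Kupffer cell and leukocyte markers ranged from 5588 to 10041 in shKAT2B, from 5855 to 8251 in shWDR5 and from 4565 to 7346 in shNS.

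Libraries also stood apart beyond their arm and treatment. The first component of the residuals held 78% of the residual variance and separated 4 libraries, the A libraries of the groups with 2, from the remaining 6. Those 4 are called the first library set here and the remaining 6, with 1 library from each group, the second. The lone PBS libraries fell in the second set despite their letter: once the shNS glucagon effect was added, shKAT2B PBS differed from shKAT2B glucagon B by a root mean square of 0.136 over genes (log2 scale) and from shKAT2B glucagon A by 0.329. For shWDR5 PBS the differences were 0.141 and 0.285. Kupffer cell and leukocyte markers were higher in the second set by a median of 0.51 (8 of 8 tested members), and stellate cell and fibroblast markers lower, at -0.48 (8 of 8). Endothelial markers were also higher there, by a median of 0.52 (8 of 8), and hepatocyte markers by 0.16 (6 of 6). Cholangiocyte markers were lower, at -0.40 (0 of 3 higher). Further fits are given where they change a call or a count, one with the letter as a replicate block and one with the library set as a term. The set was read from these same libraries, so p-values and standard errors of fits that contain it are too small. The same limit holds for fits of the second set alone, whose libraries were picked by these residuals. Those fits had 6 libraries and 2 residual degrees of freedom.

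Gpx3 was the enzyme with the largest difference in the shKAT2B arm, in the upward direction. Its level was 10.21 and 10.73 in the shKAT2B libraries with glucagon and 10.66 with PBS, against 8.49 and 9.33 in shNS with glucagon and 8.68 and 9.34 with PBS. All 3 shKAT2B libraries lay above all 4 shNS libraries, and the 3 arms did not overlap. The fitted log2 fold change was 1.59 ± 0.22 (standard error of the model, 3 shKAT2B against 4 shNS libraries), or 3.01-fold. Because Gpx3 was picked for this value, it is given as a description and no p-value is attached to it or to the other enzymes in this contrast. Of all genes tested, 99.9% had a lower fitted value.

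Gpx3 was higher in the second library set than in the first by 0.47 ± 0.10, and its shKAT2B difference had the same sign in both. Between libraries of the same set and treatment, shKAT2B minus shNS was 1.72 under glucagon in the first set, 1.40 under glucagon in the second and 1.32 in PBS in the second. With the set as a term it was 1.49 ± 0.12, and with the 6 libraries of the second set alone 1.36 ± 0.07. The markers of Kupffer cells and leukocytes had a median of 0.47 in shKAT2B with 0 of 8 called, and those of endothelial cells 0.32 with 0 of 8 called. Cholangiocyte markers had a median of -0.33 in shKAT2B with 1 of 3 called lower (Krt7), and differed by a median of -0.40 between the second and the first set. The part of these markers in the Gpx3 value was not tested. In pools of this kind, a change in the number of cells of a type and a change in RNA per cell cannot be told apart.

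**Figure D1:**
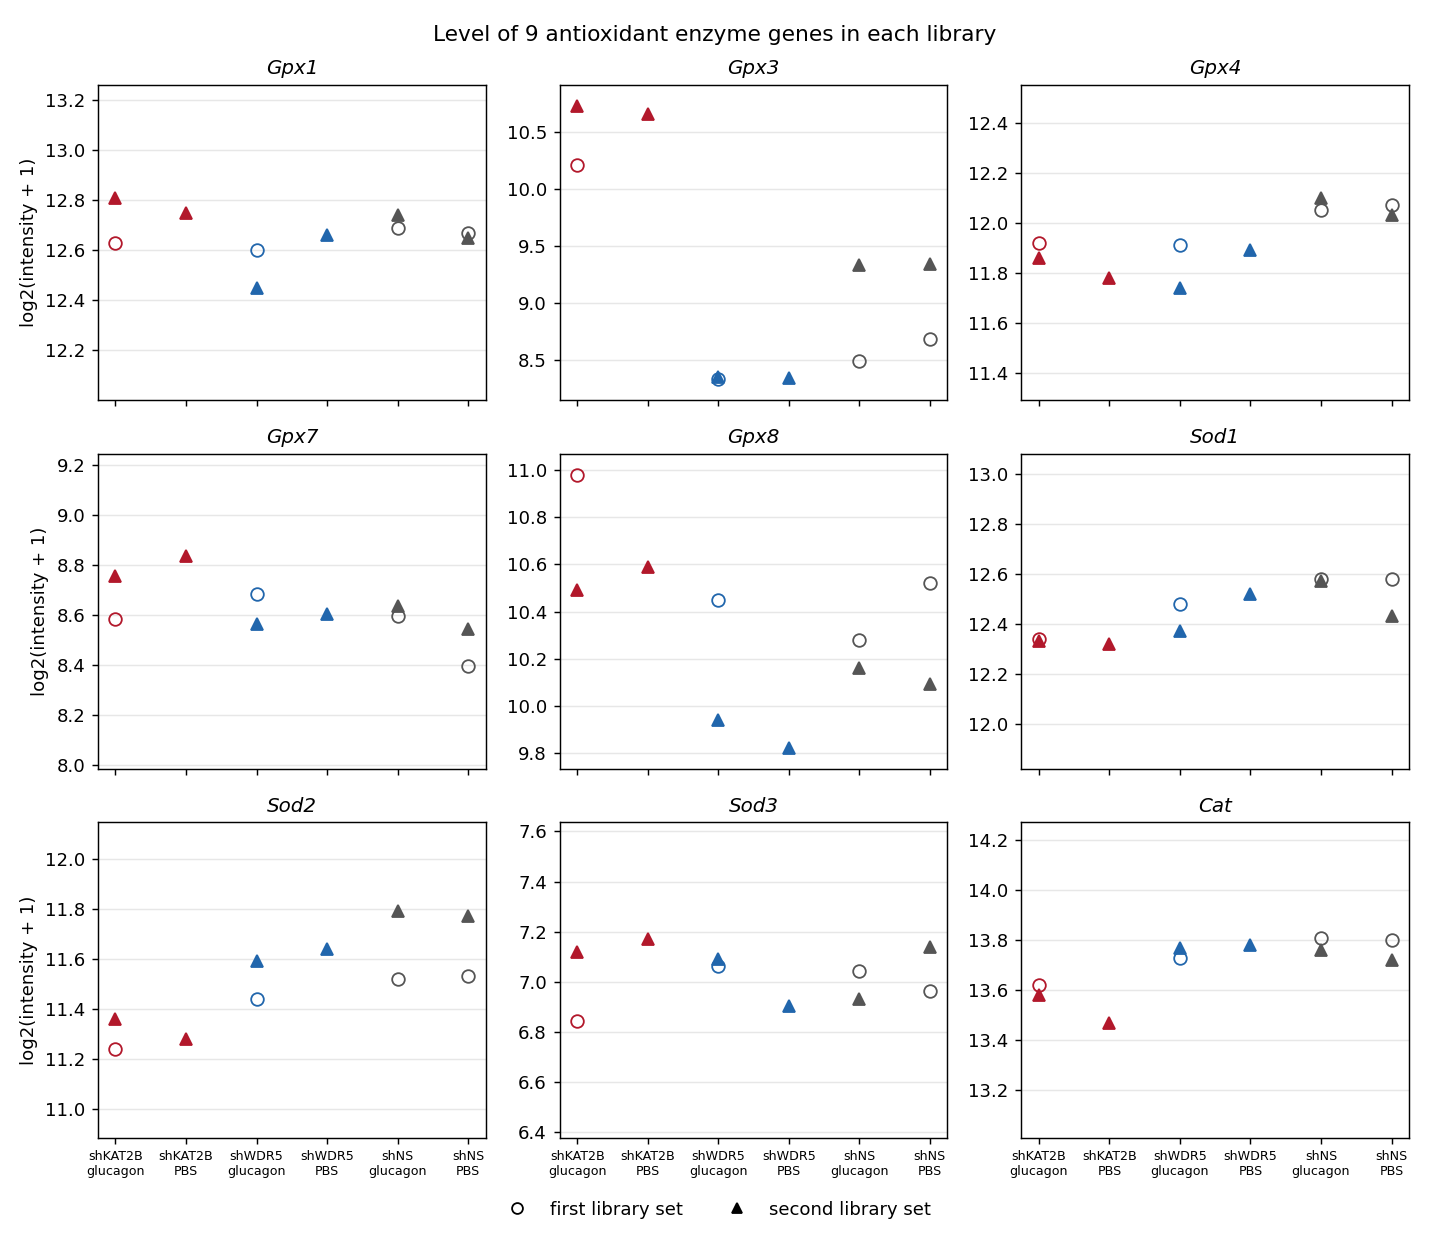
Level of each enzyme gene in every library, as log2(intensity + 1), by group; each panel has its own axis, open circles are libraries of the first set and filled triangles those of the second. Gpx3 lies between 10.21 and 10.73 in the 3 shKAT2B libraries, between 8.33 and 8.35 in the 3 shWDR5 libraries and between 8.49 and 9.34 in the 4 shNS libraries.

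The other glutathione peroxidases did not share the size of this difference. Gpx8, the membrane-bound peroxidase of the endoplasmic reticulum, stood at 10.98 and 10.49 in the shKAT2B libraries with glucagon and 10.59 with PBS, against 10.28 and 10.16 in shNS with glucagon and 10.52 and 10.09 with PBS. Within each treatment the shKAT2B libraries were higher, but shNS PBS A lay above shKAT2B glucagon B, and the fitted difference was 0.41 ± 0.18. Between libraries of the same set and treatment, shKAT2B minus shNS was 0.70 under glucagon in the first set. In the second set it was 0.33 under glucagon and 0.50 in PBS. The fitted difference was 0.49 ± 0.07 with the set as a term and 0.41 ± 0.07 with the second set alone. Gpx8 was lower in the second set than in the first by 0.41 ± 0.07, as were the stellate cell and fibroblast markers, whose median in shKAT2B was 0.17 with 0 of 8 called. Their summed intensity ranged from 6158 to 8527 in shKAT2B and from 5447 to 8195 in shNS. Their part in the Gpx8 value was not tested. Gpx7, its close relative, stood at 8.58 and 8.75 in the shKAT2B libraries with glucagon and 8.83 with PBS, against 8.59 and 8.63 in shNS with glucagon and 8.39 and 8.54 with PBS. The groups of Gpx7 overlapped under glucagon, and its fitted difference was 0.18 ± 0.09, or 0.08 ± 0.10 without the shKAT2B PBS library.

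Gpx1 and Gpx4, the intracellular selenoenzymes, differed little or the other way. Gpx1 stood at 12.63 and 12.81 in the shKAT2B libraries with glucagon and 12.75 with PBS, against 12.69 and 12.74 in shNS with glucagon and 12.67 and 12.65 with PBS. These ranges overlapped and the fitted difference was 0.05 ± 0.06. Gpx4 stood at 11.92 and 11.86 in the shKAT2B libraries with glucagon and 11.78 with PBS, against 12.05 and 12.10 in shNS with glucagon and 12.07 and 12.03 with PBS. All shKAT2B libraries lay below all shNS libraries, with a fitted difference of -0.21 ± 0.06. The second Gpx4 feature ran between 11.52 and 11.63 in shKAT2B and between 11.75 and 11.83 in shNS, also without overlap.

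The superoxide dismutases that passed the filter, and catalase, were lower in the shKAT2B arm. Sod2 stood at 11.24 and 11.36 in the shKAT2B libraries with glucagon and 11.28 with PBS, against 11.52 and 11.79 in shNS with glucagon and 11.53 and 11.77 with PBS, a fitted difference of -0.35 ± 0.09. Sod1 stood at 12.34 and 12.33 in the shKAT2B libraries with glucagon and 12.32 with PBS, against 12.58 and 12.57 in shNS with glucagon and 12.58 and 12.43 with PBS, a fitted difference of -0.21 ± 0.06. Cat stood at 13.62 and 13.58 in the shKAT2B libraries with glucagon and 13.47 with PBS, against 13.81 and 13.76 in shNS with glucagon and 13.80 and 13.72 with PBS, a fitted difference of -0.22 ± 0.04. For each of these 3 genes every shKAT2B library lay below every shNS library. Sod2 also moved with the library set, being higher in the second by 0.19 ± 0.04. Hepatocyte markers were lower in shKAT2B too, with a median of -0.54 and 2 of 6 called lower (Fgb and Ttr). The sum of 7 of them ranged from 36538 to 39839 in shKAT2B and from 42258 to 49790 in shNS. These sums pool both treatments and include Tat, which was called higher under glucagon and ran from 169 to 3191 over the libraries. Their part in these values was not tested. Sod3, the secreted dismutase, stood at 6.84 and 7.12 in the shKAT2B libraries with glucagon and 7.17 with PBS, against 7.04 and 6.93 in shNS with glucagon and 6.96 and 7.14 with PBS, and the groups overlapped. Fitted without the filter, Sod3 differed by 0.03 ± 0.10.

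Of the 8 enzymes tested, 2 (Gpx3 and Gpx8) were higher and 4 (Gpx4, Sod1, Sod2 and Cat) lower in shKAT2B without overlap in either treatment. The background is 16.4% of all genes higher and 16.6% lower by that rule, or 33% in all, and the fit called 15.6% of all genes in this contrast; nothing is read from the count since the contrast was used to choose Gpx3. The fitted median of the 8 was -0.08, and that of the 7 without Gpx3 was -0.21, beside 0.01 over all genes tested.

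**Figure D2:**
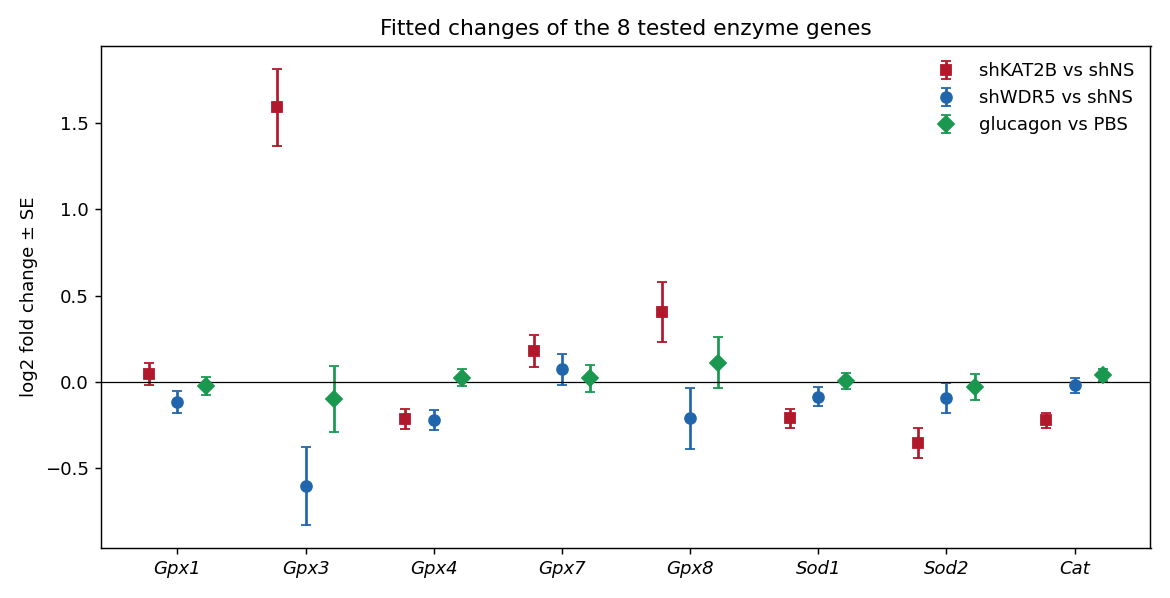
Fitted log2 fold changes with the standard error of the model for the 8 enzymes tested, for shKAT2B against shNS (3 against 4 libraries), shWDR5 against shNS (3 against 4) and glucagon against PBS (6 against 4). Gpx3 stands at 1.59 for shKAT2B and at -0.60 for shWDR5, and the 8 glucagon values lie between -0.10 and 0.11.

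The shWDR5 arm, a contrast that did not enter the choice of genes, shares its shNS libraries with the one above. Of the 8 enzymes 1 was called lower and 0 higher (limma, Benjamini-Hochberg adjusted p below 0.05 over 11480 genes), where 6.17% of all genes were called lower and 4.69% higher, or 10.9% in all. The enzyme that fell was Gpx4. It stood at 11.91 and 11.74 in the shWDR5 libraries with glucagon and 11.89 with PBS, below every shNS library (12.03 to 12.10), a change of -0.22 ± 0.06 or 1.16-fold (limma adjusted p = 0.042). Its second feature ran between 11.45 and 11.64 in shWDR5 and between 11.75 and 11.83 in shNS. The call ended when any 1 of 9 libraries was left out, that is each library except shKAT2B glucagon A, with an adjusted p of up to 0.1145. It also ended when low genes were kept (adjusted p = 0.0566) and without the trend on mean expression (adjusted p = 0.0679). Hepatocyte markers had a median of -0.12 in shWDR5 with 2 of 6 called lower (Alb and Trf). Their sum, with Tat included and both treatments pooled, ranged from 36847 to 42424 in shWDR5 and from 42258 to 49790 in shNS. Cholangiocyte markers had a median of -0.46 with 2 of 3 called lower (Krt7 and Krt19), and their summed intensity ranged from 2464 to 3883 in shWDR5 and from 3446 to 4893 in shNS. Kupffer cell and leukocyte markers had a median of 0.26, endothelial markers 0.30 and stellate cell and fibroblast markers 0.07, with 0 of 8 called in each. The part of these markers in the Gpx4 value, and in the Gpx3 value of this arm, was not tested.

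Gpx3 stood at its lowest in the shWDR5 arm and hardly varied there, with a range of 0.02, close to the rounding of the deposited values. Its level was 8.33 and 8.35 in the shWDR5 libraries with glucagon and 8.34 with PBS, against 8.49 and 9.33 in shNS with glucagon and 8.68 and 9.34 with PBS. Gpx3 and Gpx4 were the 2 of 8 enzymes with no overlap in either treatment, both lower, against 15.5% of all genes lower, 15.2% higher and 30.7% in all. They were also the 2 with an unadjusted p below 0.05, against 25.7% of all genes. The fitted Gpx3 difference was -0.60 ± 0.22 (95% interval -1.11 to -0.10), and it did not pass (limma adjusted p = 0.128). The values of shNS split by library set and those of shWDR5 did not: shWDR5 minus shNS was -0.16 under glucagon in the first set, -0.98 under glucagon in the second and -0.998 in PBS in the second. With the replicate block it was -0.50 ± 0.13 (limma adjusted p = 0.0191), with the library set as a term -0.70 ± 0.12 (limma adjusted p = 0.00051) and with the second set alone -0.99 ± 0.07 (limma adjusted p = 7.9e-06). No detection call was available for the features, so whether 8.34 lies near background was not tested.

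The remaining 6 enzymes tested in shWDR5 did not pass, with fitted values between -0.21 for Gpx8 and 0.07 for Gpx7 and limma adjusted p of at least 0.305. Single libraries moved several of these small values by over 1.5 times, and 0 of the 6 passed in any such run. Gpx8 ran from -0.38 without shWDR5 glucagon A to -0.07 without shWDR5 PBS A, and Gpx1 from -0.17 without shWDR5 PBS A to -0.06 without shWDR5 glucagon B. Sod1 ran from -0.14 without shWDR5 PBS A to -0.04 without shWDR5 glucagon B, Sod2 from -0.14 without shNS glucagon A to -0.02 without shNS glucagon B, and Gpx7 from 0.03 without shNS PBS A to 0.11 without shNS glucagon B. Sod2 stood at 11.44 and 11.59 in the shWDR5 libraries with glucagon and 11.64 with PBS, within or just below the shNS range of 11.52 to 11.79. Its value of -0.09 ± 0.09 became -0.13 ± 0.05 with the library set as a term, which passed (limma adjusted p = 0.036). Gpx8 stood at 10.45 and 9.94 in the shWDR5 libraries with glucagon and 9.82 with PBS, and its libraries lay within or below the shNS range of 10.09 to 10.52. Gpx8 passed with the second set alone, at -0.24 ± 0.07 (limma adjusted p = 0.0229). Cat ran between 13.73 and 13.78 in shWDR5 and between 13.72 and 13.81 in shNS, and the arms overlapped. Sod1 ran between 12.37 and 12.52 in shWDR5 and between 12.43 and 12.58 in shNS. Gpx1 ran between 12.45 and 12.66 in shWDR5 and between 12.65 and 12.74 in shNS, and both overlapped. Cat differed by -0.02 ± 0.04 (95% interval -0.12 to 0.08), Sod1 by -0.08 ± 0.06 and Gpx1 by -0.11 ± 0.06. Sod3 stood at 7.06 and 7.09 with glucagon and 6.90 with PBS in shWDR5, and fitted without the filter it differed by 0.0045 ± 0.10. The median of the 8 was -0.10, beside -0.01 over all genes tested.

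**Figure D3:**
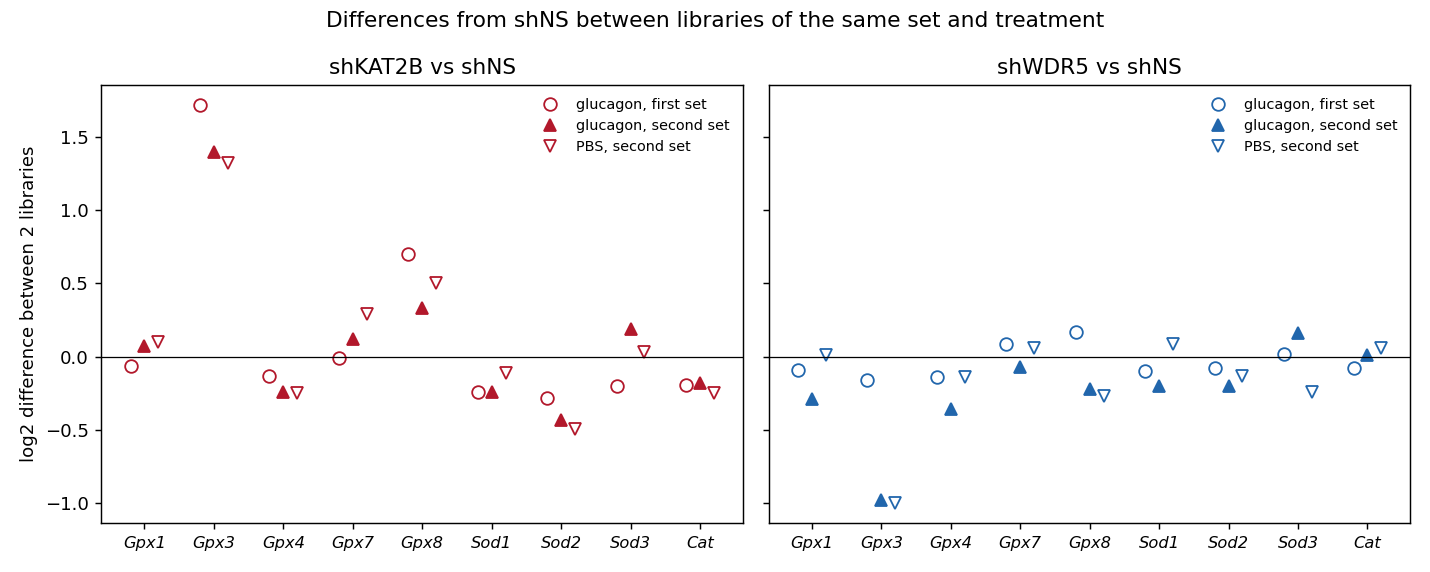
Log2 differences from shNS between single libraries of the same library set and treatment, for shKAT2B (left) and shWDR5 (right). Gpx3 stands at 1.72, 1.40 and 1.32 for shKAT2B and at -0.16, -0.98 and -0.998 for shWDR5; the points have no error of their own.

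Glucagon left no called difference among the enzymes within 90 minutes. Over the 3 arms 0 of 8 were called (limma, 6 glucagon against 4 PBS libraries), where 0.923% of all genes were, 0.679% higher and 0.244% lower. At an unadjusted p below 0.05 the count was also 0 of 8, against 4.78% of all genes. Fitted values ran from -0.10 ± 0.19 for Gpx3 to 0.11 ± 0.15 for Gpx8, with a median of 0.01 beside 0.01 over all genes. Cat had the narrowest error, at 0.04 ± 0.04, and Gpx3 the widest. For 0 of 8 genes did the glucagon and PBS libraries separate in the same direction in every arm, against 4.67% of all genes, 2.83% higher and 1.84% lower. Sod3, fitted without the filter, differed by -0.03 ± 0.09.

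The response to glucagon was also compared between arms with a model of the 6 groups. For shKAT2B against shNS 0 of 8 enzymes were called and 0 of 8 had an unadjusted p below 0.05 (limma), beside 0% and 0.314% of all genes. For shWDR5 against shNS the counts were also 0 and 0, beside 0% and 0.174% of all genes. With so few genes of the array reached, these zeros cannot tell an unchanged response of the enzymes from a changed one. The Gpx3 response in shKAT2B minus that in shNS was -0.09 ± 0.52 (95% interval -1.33 to 1.15), and the response in shWDR5 minus that in shNS was 0.10 ± 0.52 (-1.14 to 1.34). With the library set as a term these 2 values were 0.16 ± 0.24 and 0.35 ± 0.24. Each knockdown arm had 1 PBS library. The Gpx8 response in shWDR5 minus that in shNS was 0.46 ± 0.38 (limma adjusted p = 1), and 0.65 ± 0.15 with the replicate block (limma adjusted p = 0.0338). That block takes shWDR5 PBS A as a partner of the A libraries, and with the library set as a term the Gpx8 difference did not pass.

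Genes whose levels ran most nearly in parallel with Gpx3 over the 10 libraries were Spata6, Aaas, Rabl2, Mosmo and Etfrf1. Pearson correlations with Gpx3 were 0.976, 0.971, 0.971, 0.969 and 0.969, and Spearman correlations 0.985, 0.97, 0.936, 0.967 and 0.939. These points share arms and library sets, so the correlations describe the order of the libraries only. Spata6, which has a role in forming the sperm tail connection, stood at 9.78 and 10.13 in the shKAT2B libraries with glucagon and 10.10 with PBS, with shNS between 9.16 and 9.38. Aaas, which encodes a nuclear pore protein, stood at 12.13 and 12.29 in the shKAT2B libraries with glucagon and 12.29 with PBS, with shNS between 11.85 and 11.94. Etfrf1 stood at 8.94 and 8.91 in the shKAT2B libraries with glucagon and 8.90 with PBS, with shNS between 8.59 and 8.73. In Spata6 and Aaas, as in Gpx3, shKAT2B glucagon A was the lowest of the shKAT2B libraries, and in Etfrf1 it was the highest.

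Systems related to these enzymes were followed in 6 lists of genes. Glutathione supply and reduction was the list with the most called members in shKAT2B, 7 of 10 tested lower and 0 higher, where the fit called 8.95% of all genes lower and 6.66% higher. Gclc and Gclm, the subunits of the rate-limiting enzyme of glutathione synthesis, fell by 0.91 ± 0.11 and 0.66 ± 0.10 on the log2 scale. Slc7a11, the cystine importer, fell by 0.85 ± 0.19 and Chac1, which degrades glutathione, by 0.65 ± 0.14. The other 3 that fell were Gss, Gsr and Idh1, and the list's median was -0.37 beside 0.01 over all genes. Much of this count rested on shKAT2B PBS A, the only PBS library of its arm: without it 2 of the 10 genes, Gclc and Gclm, were called lower, beside 3.28% of all genes, and without other single libraries 5 to 7 were. With the library set as a term 7 were lower and 1 higher. Gss was also lost without shNS glucagon A or shKAT2B glucagon B. The Idh1 call in this arm ended without any 1 of 7 libraries, each except shNS PBS A, shWDR5 PBS A and shWDR5 glucagon A. It also ended after quantile normalization or median-centring, without the trend and when low genes were kept, but stood with the library set as a term, at -0.36 (limma adjusted p = 7.7e-05).

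Further genes of the other lists were called in the fits that take up the library differences, which also called more genes over the whole array. In shKAT2B, 8.95% of all genes were called lower and 6.66% higher with neither the replicate block nor the library set. The shares were 16.9% lower and 12.6% higher with the block, and 20.1% lower and 21.5% higher with the set as a term. Of 11 thioredoxin and glutaredoxin genes 2 fell and 0 rose in shKAT2B, and 3 were lower with the block and with the set. Srxn1, which repairs overoxidised peroxiredoxins, fell by 0.94 ± 0.06, and the cytosolic thioredoxin reductase gene Txnrd1 fell by 0.68 ± 0.08. Among 4 tested peroxidases of other families 1 fell, the mitochondrial peroxiredoxin gene Prdx3, by 0.38 ± 0.05, and with the library set 2 were lower. Among 9 selenoprotein synthesis and transport genes 1 fell, Sephs1, by 0.42 ± 0.06, and Selenop, the plasma selenium carrier, differed by 0.07 ± 0.10. The selenoprotein count was 3 lower with median-centring, 4 with the replicate block, 5 with the library set and 6 in the second set alone, with 0 higher in each. Median-centring called 10.2% of all genes lower, and the second set alone 18.5%. Counts of 1 in lists this short are not read as a result about the list. The calls of Srxn1, Txnrd1, Prdx3 and Sephs1, and those of Gclc and Gclm, were kept whichever library was left out.

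Genes for oxidant sources moved in both directions in shKAT2B, with 2 of 7 higher and 1 lower, beside 6.66% and 8.95% of all genes. With the replicate block, and with the library set, 4 were higher and 3 lower, that is all 7. Those fits called 12.6% and 21.5% of all genes higher, and 16.9% and 20.1% lower. Without shKAT2B glucagon A alone 4 were higher and 1 lower, beside 7.82% and 10.7% of all genes. Nox4, which makes hydrogen peroxide, rose by 0.74 ± 0.11, a call kept whichever library was left out. Aox3, an aldehyde oxidase, rose by 0.65 ± 0.18 and the xanthine dehydrogenase gene Xdh fell by 0.24 ± 0.06. The call of Aox3 ended without any 1 of 8 libraries, each except shNS glucagon B and shKAT2B glucagon A, and after quantile normalization or median-centring. The call of Xdh ended without any 1 of 8 libraries, each except shWDR5 glucagon A and shWDR5 glucagon B. Of 5 copper transport and delivery genes 0 were called in shKAT2B, and 1 higher and 1 lower with the replicate block and with the library set.

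In shWDR5 called genes were found in 3 of the 6 lists, and in all 6 with the replicate block or the library set. Over all genes the fit with neither called 6.17% lower and 4.69% higher, and the counts given next are from it. The block called 15.7% lower and 11% higher, and the set 18% lower and 18.8% higher. Whether the arms differ in these counts was not tested. Idh1 and Me1, which supply cytosolic NADPH, were the 2 of 10 glutathione supply and reduction genes that fell, by 0.76 ± 0.09 and 0.33 ± 0.05 on the log2 scale (limma adjusted p = 0.00249 and 0.00517), and 0 rose. Both calls were kept whichever library was left out. Of the 11 thioredoxin and glutaredoxin genes 1 fell, Txnip, which binds thioredoxin, at -0.72 ± 0.16 (limma adjusted p = 0.0241). Of 5 copper delivery genes 1 rose and 2 fell. The copper exporter gene Atp7a stood at 0.38 ± 0.09, its liver relative Atp7b at -0.32 ± 0.09 and the importer gene Slc31a1 at -0.25 ± 0.05 (limma adjusted p = 0.028, 0.0433 and 0.0205).

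Several of these shWDR5 calls rested on single libraries. That of Txnip ended without shWDR5 PBS A, shWDR5 glucagon B, shNS glucagon A or either shNS PBS library (adjusted p up to 0.115). That of Atp7a ended without any 1 of 7 libraries, each except shNS PBS A and both shKAT2B glucagon libraries, and that of Atp7b without any 1 of 9, each except shKAT2B glucagon A, and when low genes were kept. That of Slc31a1 ended without any of the 3 shWDR5 libraries, shNS PBS B or shNS glucagon B, and in median-centred libraries. Of the peroxidases of other families, the selenoprotein genes and the oxidant sources, 0 of 4, 0 of 9 and 0 of 7 were called in shWDR5. These zeros ended in the other fits: 1 peroxidase gene was lower with the block and with the set, selenoprotein genes were 1 lower and 1 higher with the block and 3 lower and 1 higher with the set, and oxidant sources were 1 lower and 1 higher with the block and 0 lower and 1 higher with the set. Thioredoxin and glutaredoxin genes were 2 lower and 1 higher with the block and 3 lower and 2 higher with the set, and copper delivery genes were 3 lower and 1 higher in both. Under glucagon 0 genes of the 6 lists were called, where 0.923% of all genes were. In the comparisons of the glucagon response between arms 0 list genes were called, and 0% of all genes. These glucagon counts of the lists were not repeated in the other fits.

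**Figure D4:**
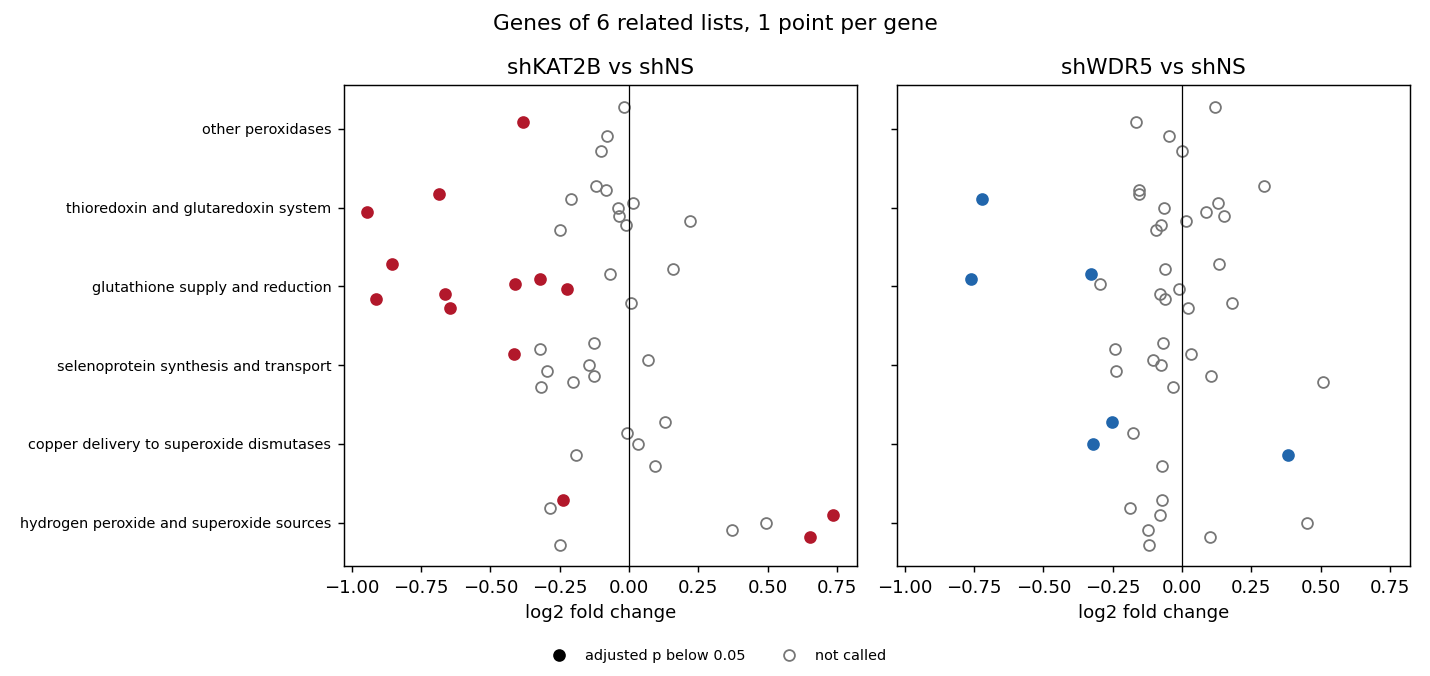
Fitted log2 fold changes of the tested genes of 6 related lists, 1 point per gene, for shKAT2B against shNS (left) and shWDR5 against shNS (right); filled points have an adjusted p below 0.05. In shKAT2B 7 of the 10 glutathione supply and reduction genes are filled and all 7 lie below 0, and in shWDR5 2 of the 10 are filled.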

How the data were processed

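The authors deposited a table of intensity on a linear scale for 26913 features. On the log2 scale these intensities were rounded to 2 decimals. Per the submitters' processing notes the software was Affymetrix Expression Console 1.1.1; their normalization was not given in the sources used here. Medians per library were 282.1 to 298.2. Precision is limited by the number of libraries, since arrays carry no read depth. Of the features, 17873 carried 1 gene symbol, 1128 several and 7912 none, and 17815 were matched to a RefSeq gene table. Values were taken as log2(intensity + 1). Limma 3.58.1 in R 4.3.3 (lmFit, eBayes with trend) fitted arm plus treatment (6 residual degrees of freedom), and the 6 groups for glucagon responses (4). Lone libraries were assumed to vary like the others. Tests were two-sided with Benjamini-Hochberg adjustment, and the fit was tested on simulated data. Figures used Python 3.11.15 and matplotlib 3.10.9. Genes, lists and alternatives were chosen with earlier results of these data known. All enzymes are named, the 5 nearest genes to Gpx3 by Pearson correlation, and up to 4 called list genes per direction and comparison with the largest change, plus 3 more of the glutathione list; in shKAT2B, and for genes that did not pass, naming followed their values. Samples of the same letter deviated together over the 4 groups with both letters (6 pairs, correlations 0.721 to 0.844), so the replicate block is given, with the library set beside it.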

Additional observations from a re-analysis of the deposited data

How the results depend on the processing

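Each enzyme was refitted under quantile normalization, median-centring, no filter, the mean of a gene's features, a pseudocount of 16, no trend, the replicate block, the library set as a term, the second library set alone and without each library in turn. The Gpx3 value in shKAT2B lay between 1.36 and 1.77 in all of these. In shWDR5 the number of enzymes called was 1, became 0 without the filter and without the trend, 2 with the replicate block (Gpx3 and Gpx4), 3 with the library set (also Sod2) and 4 in the second set alone (also Gpx8), and ranged from 0 to 1 without single libraries. The count over all genes was 1246, and 300 to 1414 without single libraries, 3065 with the block, 4227 with the set and 3202 in the second set alone. For glucagon 0 enzymes were called under each setting, while the count over all genes was 106, and 50 to 101 without single libraries, 290 with the block, 385 with the set and 309 in the second set. With the replicate block 1 enzyme (Gpx8) was called for the glucagon response of shWDR5 against that of shNS, and 545 genes in all. For that of shKAT2B it was 0 and 1383. With the library set as a term these counts were 0 and 0 for shWDR5, and 0 and 2 for shKAT2B. The block takes both lone PBS libraries as partners of the A libraries, although they fell in the second set. Counts of called list genes were added after seeing the data; that of the glutathione list in shKAT2B was 7 lower, 5 to 7 under other settings and 2 without shKAT2B PBS A. Directions turned for small values. In shWDR5, Cat stood at 0.035 and Gpx7 at -0.005 in the second set alone, and Cat between -0.056 and 0.0025 without single libraries. The Gpx3 glucagon value was 0.039 with the set, 0.023 in the second set and between -0.24 and 0.043 without single libraries, and that of Gpx8 was -0.0043 with the set. The Gpx3 response in shKAT2B against shNS was 0.16 with the set and between -0.51 and 0.33 without single libraries, and in shWDR5 it was -0.15 with the block and between -0.32 and 0.52. The Gpx8 response in shKAT2B lay between -0.015 and 0.47 without single libraries. The cause of these shifts was not tested. Without its lone PBS library an arm has no glucagon response, so that run gave no value, and interactions could not be fitted in the second set alone.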
